A study of Arabidopsis thaliana with 4 samples.

Results

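The mitochondrial genome of Arabidopsis thaliana was represented by 16 genes, each measured by at least 1 probe set of its own, among 22589 features tested. A member was any gene whose probe set the array annotation assigned to it alone and whose symbol or synonym the gene table places on the mitochondrial chromosome. No signal filter was used, and the brightest of a gene's probe sets by mean signal stood for it, so 23 probe sets gave the 16 genes. They were 8 nad genes, 2 cox genes, 4 ccm genes, mttB and matR. RNA came from whole plants on agar plates under a day and night cycle, with no special treatment. The study set ppi2 mutants grown for 20 days against wild-type plants grown for 10 days, with 2 arrays per group. The ppi2 mutation, as background, disrupts TOC159, which receives precursor proteins at the chloroplast surface. Genotype and age changed together and cannot be told apart, and the labels name no strain or plant number. Replicates are labelled as biological, with no word on whether they were grown apart, so p-values measure the spread between these arrays only.

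Plant mitochondria keep a small genome of their own, which encodes core membrane subunits of the respiratory complexes, parts of the machinery that attaches heme to cytochrome c, some ribosomal proteins and a few other proteins. All remaining subunits are made from nuclear genes and imported, so each respiratory complex needs transcripts from both genomes. Many mitochondrial transcripts are spliced and edited, and several nad transcripts are joined from separately transcribed pieces.

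Arrays are named by their labels, and in each sentence the replicate 1 value precedes the replicate 2 value of its group. No probe set was assigned to TOC159 in the annotation used, so the mutated gene could not check the labels. Across all features, ppi2 replicate 1 correlated most closely with wild type replicate 2 (Pearson r = 0.965), ppi2 replicate 2 came next with wild type replicate 1 (r = 0.924), and the other pairs of arrays, replicates of 1 group included, lay between 0.882 and 0.907. Over all features the arrays thus resembled each other across the labels. Over the 16 mitochondrial genome genes alone ppi2 replicate 1 was again closest to wild type replicate 2 (r = 0.917), while ppi2 replicate 2 was closer to ppi2 replicate 1 (r = 0.793) than to wild type replicate 1 (r = 0.735). All of these values are across genes, which are not independent replicates, on log2 signals. The array medians of all features were close, at 195 and 203 in ppi2 against 215 and 201 in wild type. Of 6 shoot markers 1 was measured, LHCB4.2, an antenna protein of leaves, at 841 and 29459 in ppi2 against 30097 and 714 in wild type. Of 5 root markers 3 were measured, with summed signals of 6651 and 13408 in ppi2 against 14707 and 7554 in wild type, nearly all of it PYK10, at 6457 and 13175 in ppi2 against 14457 and 7370.2 in wild type. EXPA18 moved less, at 117 and 129.9 in ppi2 against 178 and 95.4 in wild type. EXPA7 did not follow, at 77.0 and 104 in ppi2 against 71.8 and 88.2 in wild type. None of these markers was at 0, and their part in the results below was not tested.

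The signals of the mitochondrial genome genes were low for this array. Their median mean signal was 64.5, against 214 for all features, and 5 of the 16 reached the 40th percentile of all features, a signal of 126. The brightest was ccmFN1, at the 83.4th percentile, and the dimmest nad7, at the 8.42nd. The array medians of the 16 genes were 72.0 and 79.2 in ppi2 and 54.6 and 63.2 in wild type. Summed over the 16 genes, signals came to 3134 and 2024 in ppi2 against 1724 and 4033 in wild type, so the highest and the lowest sum were both on wild type arrays. The sums made up 0.0212% and 0.0126% of all signal in ppi2 and 0.0107% and 0.0274% in wild type. As background, standard Affymetrix labelling starts at poly(A) tails, which most mature plant mitochondrial mRNAs lack, and the labelled share of each transcript was not measured here. In RNA of whole plants, fewer mitochondria-rich cells and less RNA per cell cannot be told apart.

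**Figure D1:**
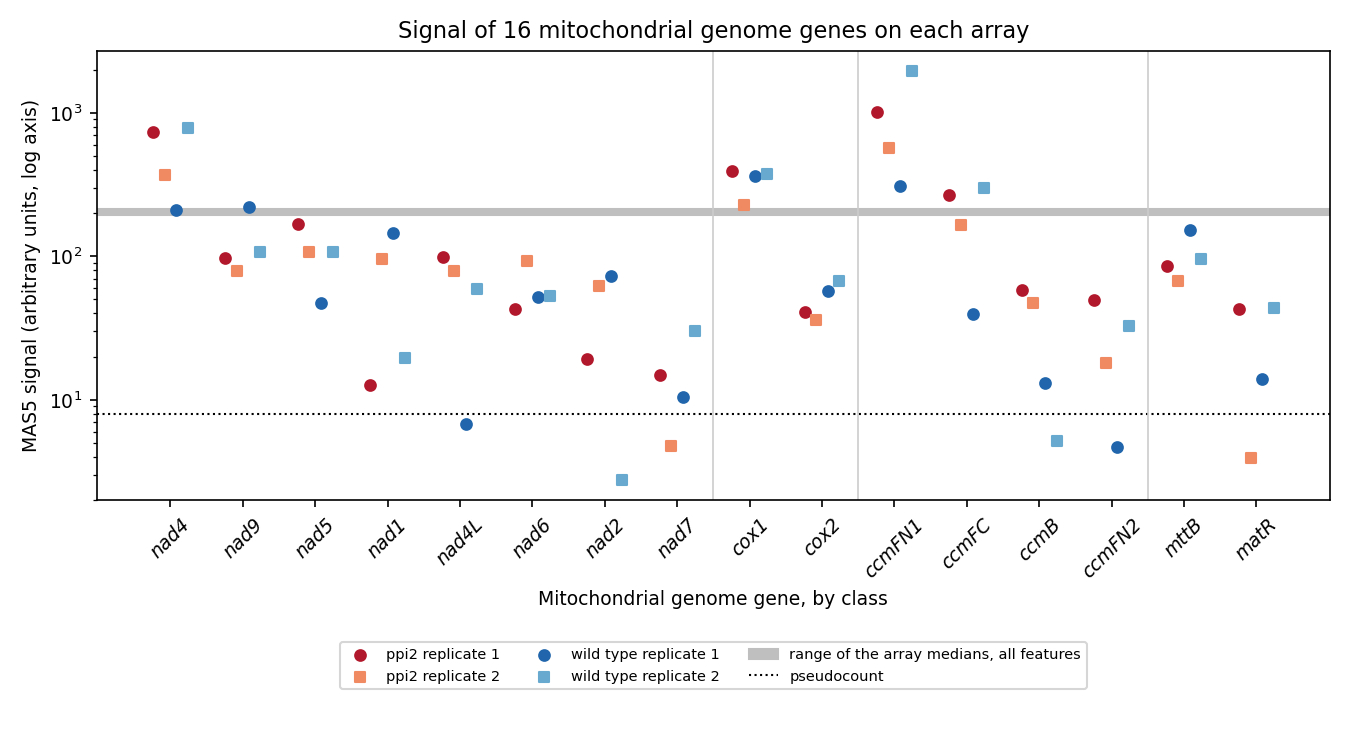
MAS5 signal in arbitrary units, on a log axis, of each of the 16 genes on each array, ordered by class (nad, cox, ccm, other) and by mean signal within a class. Reds are ppi2 and blues wild type, circles replicate 1 and squares replicate 2, the grey band spans the array medians of all features, and the dotted line is the pseudocount. Most points lie under the grey band, and red and blue points are interleaved for 10 of the 16 genes.

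Between the labelled groups 0 of the 16 genes passed the threshold of an adjusted p under 0.05 (limma, Benjamini-Hochberg over all features), as did 0% of all features. At an unadjusted p under 0.05 there was 1 gene, ccmB, while 1.25% of all features were at that level. On the log2(signal + 7.99) scale the median difference of the 16 genes was 0.10, with 8 positive and 8 negative values between -0.77 and 1.86, against a median of -0.03 for all features. Without wild type replicate 1 the median of the 16 genes was -0.28. Standard errors ran from 0.39 to 1.21 with a median of 0.71, above the median of 0.56 over all features, so only large differences could have passed with 2 arrays a group. Both ppi2 arrays lay above both wild type arrays for 3 genes (nad4L, nad5 and ccmB), an order seen for 7.91% of all features. The opposite order held for 3 genes (nad9, cox2 and mttB) and for 11.8% of all features. Both orders were more common among dim features. Of the 11 genes under the 40th percentile of mean signal, 3 had the first order and 2 the opposite one, beside 10.6% and 17.3% of such features. Of the 5 genes at or above it, 0 had the first order and 1 the opposite one, beside 6.13% and 8.09%.

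**Figure D2:**
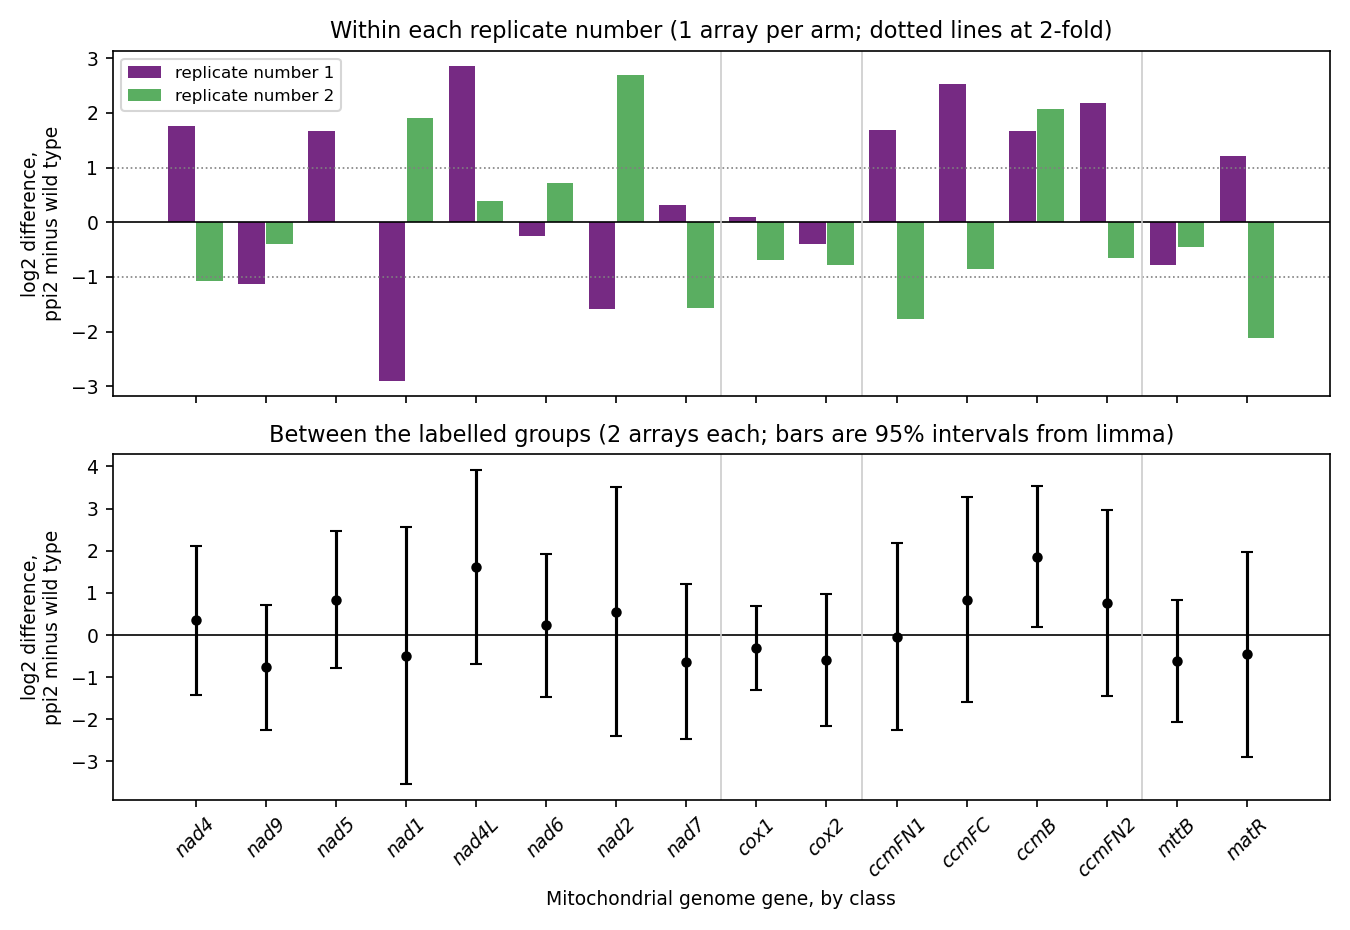
Differences on the log2(signal + pseudocount) scale, ppi2 minus wild type, for the 16 genes by class. Above, bars give the difference within replicate number 1 and within replicate number 2, each from 1 array per arm, with dotted lines at 2-fold; below, points give the difference between the labelled groups with 95% intervals from limma. Bars of the 2 numbers point in opposite directions for 10 genes, and every interval but that of ccmB includes 0.

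To show how single arrays differed, differences were also taken between the ppi2 array and the wild type array of the same replicate number. The labels do not say that a number marks a shared batch or day. With 1 array per arm, such a difference has no error and no p-value. Within number 1 the 16 genes had a median log2 difference of 0.76, with 8 at least 2-fold higher in ppi2 (11.9% of all features) and 3 at least 2-fold lower (20.0% of all features). Within number 2 their median was -0.55, with 3 at least 2-fold higher (14.8% of all features) and 4 at least 2-fold lower (11.6% of all features). The medians of all features were -0.12 and 0.01. Of the 16 genes, 7 were higher in number 1 and lower in number 2, a pattern of 31.8% of all features, and 3 were lower then higher, as were 38.3%. Another 3 were higher in both (12.4% of all features) and 3 lower in both (17.4%). A 2-fold difference in opposite directions was seen for 5 genes. Of these, ccmFN1, nad4 and matR were higher then lower (4.98% of all features), and nad1 and nad2 lower then higher (8.25%). Only ccmB among the 16 was 2-fold higher in both numbers (1.03% of all features). With a pseudocount at the 25th percentile ccmFN1 and nad1 kept opposite 2-fold differences, while nad4 (1.60 and -0.997), matR (0.57 and -0.85) and nad2 (-0.88 and 1.15) did not, and ccmB was at 0.83 and 0.87. Dim features moved more than bright ones: under the 40th percentile of mean signal 14.7% of features were at least 2-fold higher and 33.7% at least 2-fold lower within number 1, against 10.1% and 10.8% at or above it. Most of the 16 genes, 11, were of the dim kind. Across the arrays a gene's log2 signal spanned a median of 1.99 for the 16 genes and 1.003 for all features.

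The nad genes encode subunits of complex I, the NADH dehydrogenase that feeds electrons into the respiratory chain. As a class, 5 of the 8 had positive and 3 negative labelled differences, with a median of 0.29, and none passed the threshold. Without ppi2 replicate 2 that median was -0.16, without ppi2 replicate 1 it was 0.60, and without wild type replicate 2 it was 0.07. Their medians within the replicate numbers were 0.03 and 0.19, near those of all features, but single genes spread from -2.90 to 2.85 within number 1. The brightest, nad4, a subunit of the proton-pumping membrane arm, had signals of 735 and 371 in ppi2 against 212 and 786 in wild type. Both extremes were on wild type arrays, and the groups overlapped. Its labelled difference was 0.35 ± 0.70 (SE, limma), made of 1.76 within number 1 and -1.07 within number 2.

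Another membrane arm subunit, nad5, gave 167 and 107.3 in ppi2 against 47.1 and 107.1 in wild type. Wild type replicate 1 was low and the second arrays of the groups were nearly equal, so the groups were barely separated. The labelled difference was 0.84 ± 0.65 (SE). The small membrane subunit nad4L had 98.2 and 79.2 in ppi2 against 6.76 and 58.7 in wild type. Both ppi2 arrays were higher, and wild type replicate 1 lay under the pseudocount of 7.99. Its labelled difference of 1.62 ± 0.91 (SE) was the second largest among the 16 genes (unadjusted 95% interval -0.68 to 3.91). Without wild type replicate 1 it was 0.53.

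The nad9 gene encodes a subunit of the peripheral arm, where NADH is oxidised. It read 96.7 and 79.2 in ppi2 against 222 and 107 in wild type, so both ppi2 arrays were lower. The labelled difference was -0.77 ± 0.59 (SE), with -1.13 and -0.40 within the numbers. The other measured peripheral arm gene, nad7, was the dimmest of the 16, with 14.9 and 4.74 in ppi2 against 10.4 and 30.0 in wild type. Its groups overlapped, and the labelled difference was -0.63 ± 0.73 (SE).

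Transcripts of nad1 and nad2 are, as background, joined from separate pieces by trans-splicing, as are those of nad5. For nad1 the signals were 12.7 and 95.3 in ppi2 against 146 and 19.4 in wild type, so ppi2 replicate 1 and wild type replicate 2 were both low. For nad2 they were 19.2 and 61.8 in ppi2 against 73.4 and 2.77 in wild type, with the same 2 arrays low. Within the numbers this gave log2 differences of -2.90 and 1.91 for nad1 and of -1.58 and 2.70 for nad2. Their labelled differences were -0.49 ± 1.21 (SE) and 0.56 ± 1.17 (SE), the least precise of the 16. The membrane subunit nad6 read 42.6 and 92.7 in ppi2 against 52.3 and 53.0 in wild type, so both extremes were on ppi2 arrays, with a labelled difference of 0.24 ± 0.67 (SE).

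Only nad1 and nad5 had more than 1 probe set of their own. The 7 nad1 probe sets did not move together: within number 1, 2 were higher and 5 lower in ppi2, with log2 differences between -3.10 and 1.19, and within number 2, 4 were higher and 3 lower, between -2.02 and 1.91. The probe set of next highest mean signal read 83.2 and 12.7 in ppi2 against 48.8 and 75.8 in wild type, opposite to the one that stands for the gene. The mean signals of the 7 ran from 10.5 to 68.4. The annotation used does not say which stretch of the gene each probe set covers. The nad5 probe sets moved alike within number 1, by 1.67 and 1.31, while within number 2 they were at 0.00 and -0.27.

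**Figure D3:**
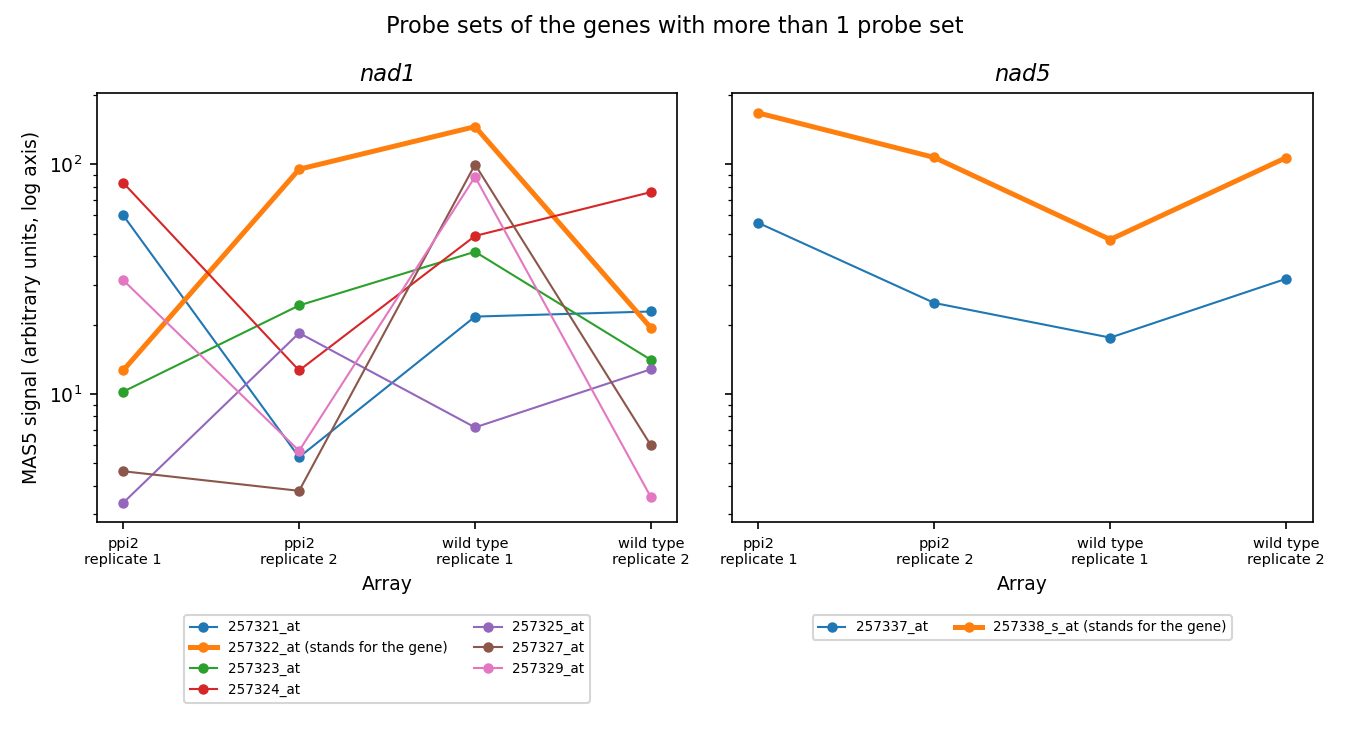
MAS5 signal in arbitrary units, on a log axis, of each probe set of nad1 (left, 7 probe sets) and nad5 (right, 2 probe sets) on each array; thick orange lines mark the probe set that stands for the gene, and lines only join the points of a probe set. The nad1 lines cross between arrays, while the nad5 lines run alike.

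The cox genes encode the catalytic core of complex IV, cytochrome c oxidase, which passes electrons to oxygen. The labelled differences of both were negative, and neither passed the threshold. The signals of cox1, the subunit that holds the oxygen-binding site, were 390.1 and 229 in ppi2 against 365 and 375 in wild type. It varied less than the other genes, with the highest and the lowest value both in ppi2. The labelled difference was -0.30 ± 0.39 (SE), with the smallest error of the 16 genes. The subunit that takes electrons from cytochrome c, cox2, gave 41.1 and 36.1 in ppi2 against 56.9 and 67.7 in wild type. Both ppi2 arrays were lower, and replicates differed little. Its labelled difference was -0.59 ± 0.62 (SE), a value that stayed between -0.70 and -0.48 when each array was left out.

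The ccm genes encode parts of the cytochrome c maturation system, which carries heme across the inner membrane and attaches it to cytochrome c. All 4 were at least 2-fold higher in ppi2 within number 1 (11.9% of all features), by 1.66 to 2.53 on the log2 scale, while within number 2 ccmB was higher and the other 3 lower, with a median of -0.75. With a pseudocount at the 25th percentile ccmB (0.83) and ccmFN2 (0.92) no longer reached 2-fold within number 1. Between the labelled groups the median was 0.80 with 0 past the threshold, and without wild type replicate 1 it was -0.29. Without wild type replicate 2 it was 1.56, without ppi2 replicate 2 it was 1.26, and without ppi2 replicate 1 it was 0.35. On the wild type replicate 1 array the summed signal of the 4 genes was lowest, at 1388 and 796 in ppi2 against 366 and 2288 in wild type. Most of that sum was ccmFN1, at 1013 and 566 in ppi2 against 309 and 1948 in wild type. The lowest array of ccmB was wild type replicate 2.

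The ccmFN1 gene (ccb382 in older annotation) encodes a piece of the heme lyase and was the brightest of the 16. Its signals were 1013 and 566 in ppi2 against 309 and 1948 in wild type. The wild type arrays were the lowest and the highest, and the groups overlapped. It made up 32.3% and 28.0% of the summed signal of the 16 genes in ppi2, against 17.9% and 48.3% in wild type. The labelled difference was -0.04 ± 0.88 (SE), from 1.69 within number 1 and -1.77 within number 2. After median centring of the arrays it was 0.02. The other piece of the same lyase region is encoded by ccmFN2 (ccb203), with 49.4 and 18.0 in ppi2 against 4.73 and 32.7 in wild type. Wild type replicate 1 was low here too, and the groups overlapped. Its labelled difference was 0.76 ± 0.88 (SE).

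A further lyase part, ccmFC (ccb452), had 267 and 164 in ppi2 against 39.6 and 301 in wild type, again with wild type replicate 1 lowest and wild type replicate 2 highest. Its labelled difference was 0.84 ± 0.96 (SE). The remaining gene of the class, ccmB (ccb206), encodes a membrane subunit of the transporter of the system. It read 58.4 and 47.1 in ppi2 against 13.0 and 5.15 in wild type. Both ppi2 arrays were higher, and wild type replicate 2 lay under the pseudocount. Its labelled difference of 1.86 ± 0.66 (SE, unadjusted 95% interval 0.19 to 3.53) was the largest of the 16 genes and lay between 1.52 and 2.20 when each array was left out. It did not pass, with an unadjusted p of 0.0347 and an adjusted p of 0.99997 (limma, Benjamini-Hochberg over all features). The signal of this probe set is low, at a mean of 30.9, and no second probe set was assigned to the gene.

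Among the remaining genes, mttB (listed as orfX in older annotation) encodes a relative of the bacterial TatC protein, a membrane part of a protein export system, and was the only member from the group of open reading frames. Its signals were 85.6 and 67.4 in ppi2 against 153 and 95.1 in wild type, both ppi2 arrays being lower. The labelled difference was -0.62 ± 0.57 (SE). The maturase gene matR lies within an intron of nad1 and encodes a splicing factor. It gave 42.8 and 3.92 in ppi2 against 14.0 and 43.9 in wild type, so ppi2 replicate 2 and wild type replicate 1 were low. Within the numbers its differences were 1.21 and -2.12, while those of the probe set that stands for nad1 were -2.90 and 1.91. The nad1 probe sets did not move together, with 2 higher and 5 lower within number 1, and 4 higher and 3 lower within number 2. The nad1 probe set of next highest mean signal had the signs of matR, at 0.68 and -2.02.

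No atp gene and no ribosomal protein gene had a probe set of its own. Of 32 protein-coding symbols that the gene table places on the mitochondrial chromosome, 16 were measured as above, 11 were found only on probe sets shared with another gene, and 5 (atp4, atp6, atp8, ccmC and nad3) were on neither. The shared probe sets numbered 12, and 11 of them also carried the name of a nuclear locus on chromosome 2. As background, that chromosome of the Columbia strain holds a large insertion of mitochondrial DNA, so signals of these probe sets cannot be told apart by genome. Of the 16 members 5 (ccmFC, nad5, nad6, mttB and matR) also rest on a probe set of the kind whose name marks a match to more than 1 sequence. Their medians within the numbers were 1.21 and -0.45, against 0.32 and -0.65 for the other 11.

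The shared probe sets had median differences of 0.20 within number 1 and -0.13 within number 2. None passed the threshold and 1 had an unadjusted p under 0.05 (limma), as did 1.25% of all features. The one for atp9, the ring subunit of ATP synthase, and AT2G07671 read 318 and 602 in ppi2 against 613 and 395 in wild type. The one for atp1, the catalytic-head alpha subunit, and AT2G07698 read 407 and 472 in ppi2 against 322 and 540 in wild type. The groups overlapped for both. The probe set for cob, the cytochrome b of complex III, and AT2G07727 read 95.6 and 63.7 in ppi2 against 91.2 and 144 in wild type, also overlapping.

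Ribosomal protein genes were measured only on shared probe sets. The one for rps3 and rpl16, which overlap on the mitochondrial genome, read 344 and 360.2 in ppi2 against 221 and 423 in wild type. Signals spread widest for rpl5 and rps7. The rpl5 probe set, shared with AT2G07725, gave 114 and 56.8 in ppi2 against 4.17 and 80.2 in wild type, with wild type replicate 1 far below the rest. The rps7 probe set, shared with AT2G07696, gave 1.28 and 34.4 in ppi2 against 70.6 and 5.01 in wild type. There ppi2 replicate 1 and wild type replicate 2 were low, as for the probe set that stands for nad1. A probe set for nad1 and AT2G07701 was at least 2-fold lower in ppi2 in both numbers, as were 411 of the 22589 features. It read 6.42 and 10.4 in ppi2 against 63.5 and 45.05 in wild type. None of the 7 probe sets of nad1 alone was 2-fold lower in both numbers. Among them 1 also had both ppi2 arrays lower, at 4.62 and 3.80 in ppi2 against 99.9 and 5.99 in wild type. Its differences were -3.10 within number 1 and -0.25 within number 2. The other shared nad1 probe set, with AT2G07702, had both ppi2 arrays higher, at 33.7 and 58.1 in ppi2 against 12.8 and 28.6 in wild type, with differences of 1.003 within number 1 and 0.85 within number 2.

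**Figure D4:**
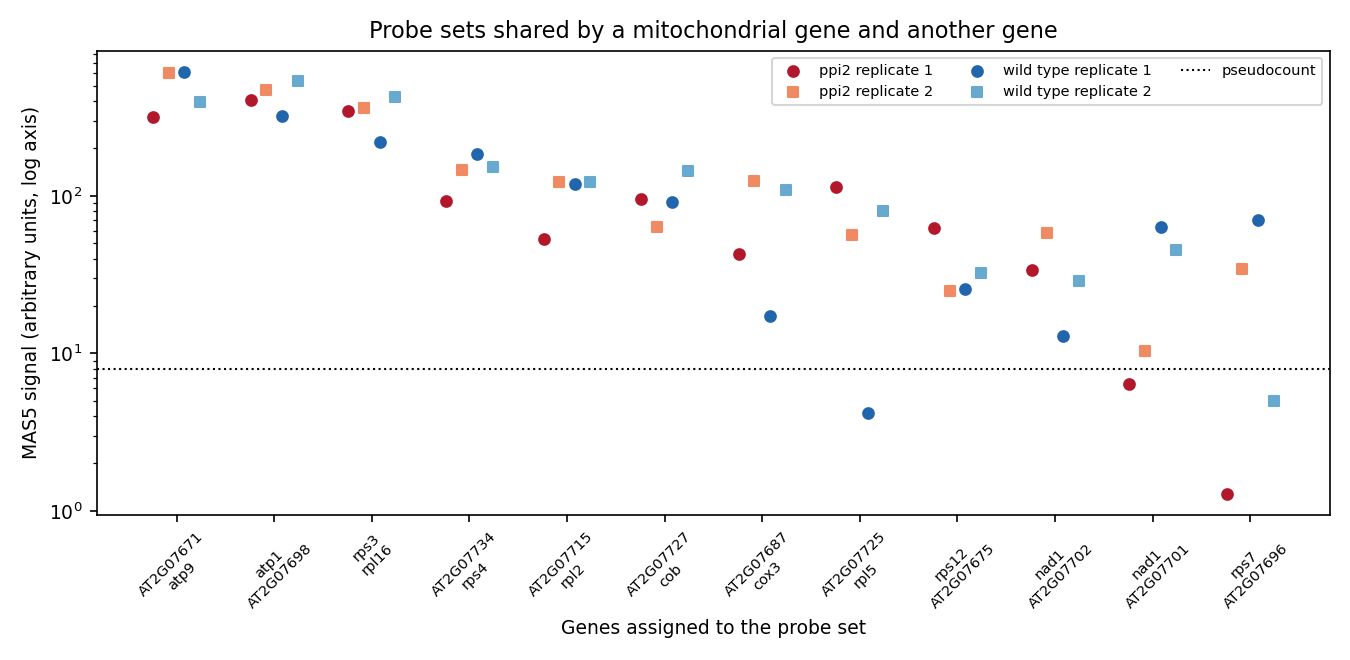
MAS5 signal in arbitrary units, on a log axis, of the 12 probe sets that the annotation assigns to a mitochondrial gene together with another gene, ordered by mean signal. Colours and markers are those of the plot of the 16 genes, and the dotted line is the pseudocount. Groups overlap for 9 of the 12, and the values of rpl5 and rps7 spread widest. Both ppi2 arrays lie above both wild type arrays for 1 probe set (7.91% of all features) and below them for 2 (11.8%).

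Genes next to each other on the mitochondrial chromosome were compared by the order of the gene table, without regard to strand. Each gene was placed at 1 start position. The transcripts of nad1, nad2 and nad5 are joined from separate pieces, so their pairs are neighbours by that start only. By this order matR, which lies within an intron of nad1, stood between rpl2 and nad5. Among 7 neighbouring pairs of members, the differences had the same sign in 4 within number 1 and in 3 within number 2. Over all 22 measured neighbouring pairs, shared probe sets included, the counts were 14 and 11. These counts include the pair rps3 and rpl16, read on the same probe set, so its equal sign was fixed in advance. The pair ccmFC and nad4 moved alike, at 2.53 and 1.76 within number 1 and -0.85 and -1.07 within number 2. The pair nad1 and cox1 did not, at -2.90 and 0.09 within number 1 and 1.91 and -0.69 within number 2. The pair rpl5 and cob, read on shared probe sets, was at 3.33 and 0.06 within number 1 and -0.45 and -1.09 within number 2.

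The genes of the other organelle genome were set beside those of the mitochondrion. The 69 plastid genome genes had mean signals from 10.9 (ndhF) to 28102 (atpB), with a median of 1918; probe sets differ in how well they bind, so these levels are not set against those of the mitochondrial genes. They made up 1.45% and 2.70% of all signal in ppi2 against 1.99% and 1.71% in wild type. Their medians within the numbers were -0.78 and 0.79, where those of the mitochondrial genome genes were 0.76 and -0.55. Lower then higher were 45 of the 69 plastid genes and 3 of the 16 mitochondrial ones, beside 38.3% of all features. Higher then lower were 16 of 69 and 7 of 16, beside 31.8% of all features. The brightest plastid gene, atpB of the plastid ATP synthase, read 16421 and 37731 in ppi2 against 39311 and 18944 in wild type. Both comparisons use the same arrays, and the difference between the 2 genomes was not tested.

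Nuclear genes for mitochondrial proteins were compared in the same way, although the annotation named few of those listed. At an unadjusted p under 0.05 there were 0 genes in each of the nuclear lists and among the plastid genome genes (limma). Of 15 nuclear complex I subunits 6 were measured, with 0 past the threshold. Their medians within the numbers were -0.04 and 0.20, close to the 0.03 and 0.19 of the nad genes but without their spread. Their median mean signal was 2993, against 64.5 for the nad genes, and dim features moved more on these arrays. The part of signal level in the spread was not tested. The brightest, AT5G11770, a subunit near the ubiquinone site, read 4602 and 3423 in ppi2 against 4019 and 3641 in wild type. AT3G12260 read 2696 and 4194 in ppi2 against 3591 and 2956 in wild type. AT4G02580, a peripheral arm subunit, read 3445 and 3952 in ppi2 against 2612 and 3382 in wild type. Both ppi2 arrays were higher for AT4G02580, and the groups overlapped for the other two.

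For complexes II to IV and cytochrome c, 19 of 31 listed genes were measured, 0 passed, and the medians were 0.17 and -0.18. The complex IV subunit gene AT4G37830 was steady, at 6605 and 7476 in ppi2 against 7077 and 7174 in wild type. CYTC-1, one of the cytochrome c genes, the protein that the ccm system equips with heme, read 5152 and 5154 in ppi2 against 4714 and 6230.2 in wild type. The complex III subunit gene AT4G32470 read 3702 and 4519 in ppi2 against 4603 and 4374 in wild type. The further genes CYTC-2, AT5G25450 and AT3G10860 were chosen after their values were seen. CYTC-2, the other cytochrome c gene, gave 970.0 and 341 in ppi2 against 247 and 1115 in wild type, the same order of arrays as ccmFN1. AT5G25450, a complex III subunit gene, gave 454 and 78.6 in ppi2 against 25.6 and 422 in wild type. They were the only 2 of the 19 at least 2-fold higher then 2-fold lower, as were 4.98% of all features. In the other direction there was 1 gene, AT3G10860, as were 8.25% of all features. It read 1638 and 4259 in ppi2 against 4135 and 1780 in wild type. Of 7 nuclear ATP synthase subunits 2 were measured, with 0 past the threshold. AT5G47030 read 3742 and 2935 in ppi2 against 2995 and 3422 in wild type, and AT1G51650 read 2613 and 1907 in ppi2 against 1442 and 2316 in wild type. Of 3 nuclear cytochrome c maturation factors CCMH alone was measured, at 181 and 209 in ppi2 against 278 and 188 in wild type, so it was lower within number 1, where all 4 ccm genes were higher.

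Of 29 nuclear factors for mitochondrial transcription, RNA processing and DNA upkeep, 7 were measured and 0 passed, with medians of 0.36 and -0.38. The brightest, the maturase gene AT5G46920, read 498 and 475 in ppi2 against 399 and 546 in wild type. OSB1, a DNA-binding protein that limits recombination of the mitochondrial genome, read 286 and 225 in ppi2 against 203 and 208 in wild type, higher in both ppi2 arrays. AT5G14580, the mitochondrial polynucleotide phosphorylase that degrades RNA, read 107 and 140.4 in ppi2 against 80.9 and 155 in wild type, overlapping.

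Alternative respiratory enzymes bypass the proton-pumping complexes, and 4 of 13 were measured, with 0 past the threshold and medians of -0.77 and 0.82. NDB2, an external NADH dehydrogenase, read 874 and 501 in ppi2 against 290.4 and 852 in wild type. NDB1 read 334 and 498 in ppi2 against 533 and 439 in wild type, and NDB3 53.3 and 62.7 in ppi2 against 104 and 5.72 in wild type. The groups overlapped for all of these. Of 13 genes known to respond to mitochondrial stress, a list that also holds NDB2, 5 were measured and 0 passed, with medians of 1.56 and -0.76. AT2G21640, a marker of oxidative stress, read 581 and 115 in ppi2 against 109 and 906 in wild type, again low in ppi2 replicate 2 and wild type replicate 1. AT2G41380 read 232 and 266 in ppi2 against 224 and 214 in wild type, slightly higher in both ppi2 arrays.

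**Figure D5:**
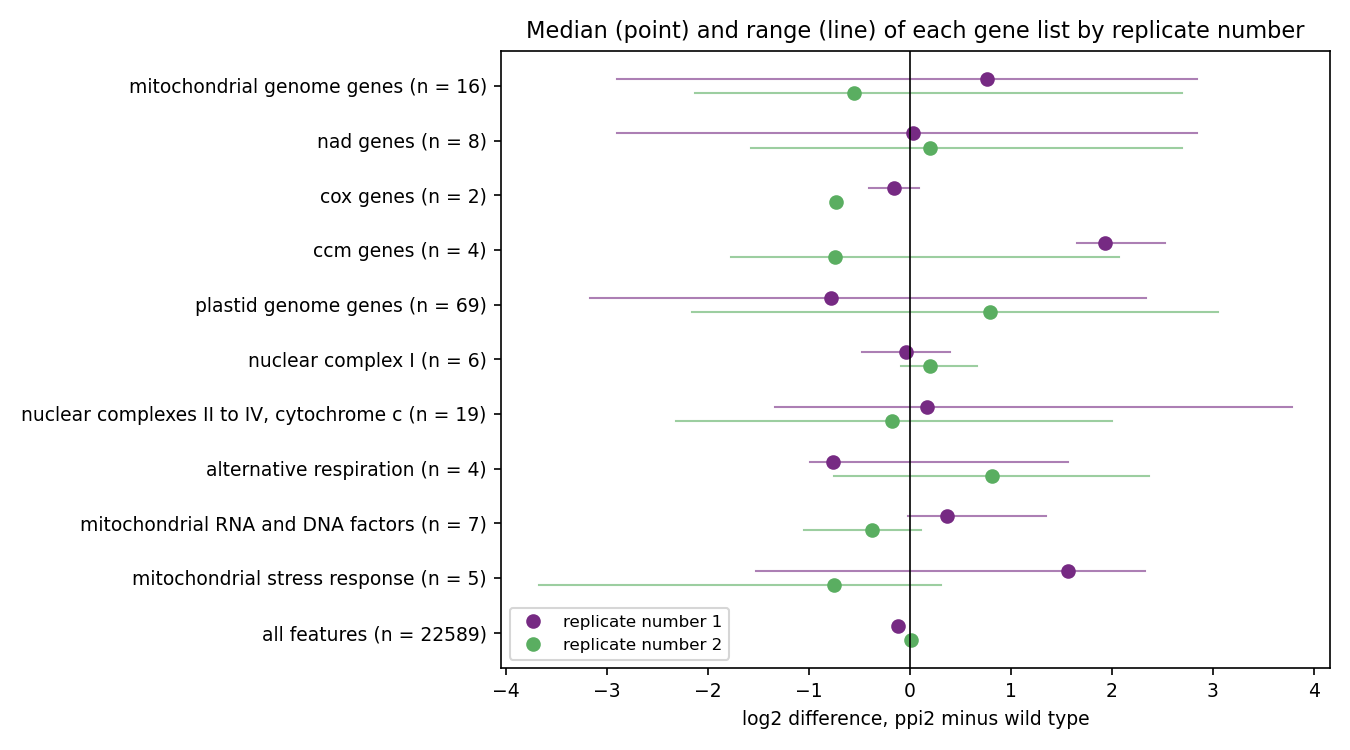
Median (point) and range (line) of the log2 differences, ppi2 minus wild type, within replicate number 1 and within replicate number 2, for the mitochondrial genome genes, 3 of their classes, the plastid genome genes, 5 nuclear lists of at least 4 measured genes, and all features, for which the median alone is drawn. The medians of the mitochondrial genome genes lie at 0.76 and -0.55, those of the plastid genome genes at -0.78 and 0.79.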

How the data were processed

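Total RNA of 4 whole-plant samples was hybridised to single-colour Affymetrix arrays, after Trizol extraction and biotin labelling per the labels' protocols. The deposited values were linear signal intensities made with MAS5 per the submitters' processing notes, with a version and a target not given in the sources used here. Detection calls were not used. Of 22810 probe sets, 64 controls were left out. The annotation table held 14016 probe sets, 13513 of them with 1 gene. None of the gene identifiers of the 16 members was in the RefSeq gene table (assembly TAIR10.1), so they were matched by symbol or synonym, leaving out any identifier the table places on another chromosome. No coordinates or sequences are given.

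Signals were taken as log2(signal + 7.99), the pseudocount being the 10th percentile of all signals, which understates differences of dim probe sets. A fold of 2 is a difference of 1 on this scale. The brightest probe set by mean signal stood for each gene, which removed 157. For the labelled comparison limma 3.58.1 was run in R 4.3.3 (lmFit, eBayes with trend, group only, two-sided). P-values were adjusted by Benjamini-Hochberg over 22589 features, with a threshold of 0.05. The fit had 2 residual degrees of freedom and 3.34 prior ones. Standard errors and intervals come from this fit. Every member could be named, and of each nuclear list the 3 brightest, since none passed. CYTC-2, AT5G25450 and AT3G10860 were named outside that rule, after their values were seen. The members, lists and tests were chosen with earlier results of these data known. Alternatives were other pseudocounts and filters, median centring, quantile normalization, no variance trend, a replicate block, leaving out each array, the mean of a gene's probe sets, and shared probe sets kept as members. The labels give no pairing by replicate number. Tables and figures were made with Python 3.11.15, pandas 2.3.3 and matplotlib 3.10.9. With 2 arrays a group, their number limits the precision.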

Additional observations from a re-analysis of the deposited data

Results flagged for a closer look

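For 5 of the 16 mitochondrial genome genes the ppi2 array and the wild type array differed at least 2-fold in opposite directions in the 2 replicate numbers, and this difference between the numbers was not tested, each number holding 1 array per arm. On the log2(signal + 7.99) scale, ccmFN1 differed by 1.69 within number 1 and -1.77 within number 2, nad4 by 1.76 and -1.07, and matR by 1.21 and -2.12. The other order was seen for nad1, at -2.90 within number 1 and 1.91 within number 2, and for nad2, at -1.58 and 2.70. With a pseudocount at the 25th percentile, ccmFN1 and nad1 alone of these kept 2-fold differences in opposite directions. Among all features, 4.98% followed the order of the first 3 genes and 8.25% that of nad1 and nad2. The spike-in controls also differed between arrays: the 18 hybridisation control probe sets had medians of 840.0 and 1669 in ppi2 against 1514 and 1106 in wild type, and the 27 poly-A control probe sets 1202 and 363 in ppi2 against 1706 and 462 in wild type. The poly-A medians were thus higher on the replicate 1 array of both groups. Their part in these results was not tested.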

How the results depend on the processing

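Under each of the 14 alternatives 0 features and 0 of the mitochondrial genome genes passed the threshold (limma), while features at an unadjusted p under 0.05 numbered 282 as reported and between 1 (filter at the 60th percentile, 9036 features) and 863 (without wild type replicate 2). The replicate block gave 0 calls and 85 features at an unadjusted p under 0.05. Same-numbered deviations from the group means correlated at -0.50 over all features, and the arrays share only a number as far as the labels say. The median labelled difference of the members, 0.10 as reported, ran from -0.28 to 0.23 when each array was left out (ppi2 replicate 2 left out for the highest, wild type replicate 1 for the lowest) and from -0.04 to 0.19 under the other alternatives. Of 200 labelled differences of members under alternatives, 15 had the other sign, 14 of them in fits without 1 array. Of the 16 genes, 7 kept their sign in all of these fits and 9 did not, with ranges over the left-out arrays of -0.58 to 1.27 for nad4, -1.74 to 0.75 for nad1, -0.26 to 0.73 for nad6, -0.90 to 2.02 for nad2, -0.67 to 0.0755 for cox1, -1.35 to 1.27 for ccmFN1, -0.51 to 2.19 for ccmFC, -0.0767 to 1.60 for ccmFN2 and -1.50 to 0.59 for matR. Among those that kept it, the ranges were -1.27 to -0.27 for nad9, 0.31 to 1.37 for nad5, 0.53 to 2.71 for nad4L, -1.15 to -0.11 for nad7 and -0.94 to -0.30 for mttB, with the value nearest 0 without wild type replicate 1, except for nad7, where it was without wild type replicate 2. The remaining change of sign was ccmFN1 after median centring, at 0.0204. The cause was not tested.

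The nad median within number 2, 0.19 as reported, was -0.73 over the 2 nad genes left by the filter at the 40th percentile. Counts within the replicate numbers moved with the pseudocount and the filter. With a pseudocount at the 25th percentile (45.6), 5 genes were at least 2-fold higher and 1 lower within number 1, and 1 lower within number 2. A filter at the 40th percentile left 5 members, with a median of 1.69 and 3 higher and 1 lower within number 1, and 0 higher and 2 lower within number 2. A filter at the 60th percentile left 3, with a median of 1.69 and 2 higher and 0 lower within number 1, and 0 higher and 2 lower within number 2. With shared probe sets kept, which makes 26 members, 5 were lower within number 1. Over the alternatives the medians of the members within numbers 1 and 2 ran from 0.33 to 1.69 and from -1.07 to -0.26. Averaging all nad1 probe sets gave -0.96 within number 1 and 0.07 within number 2. With low signals and 2 arrays a group, differences of the size of the standard errors were not detectable.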
